A study of Mus musculus with 6 samples.

Results

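The Ifi200 genes, also called the PYHIN or HIN-200 family, were read in bone-marrow-derived macrophages (BMDMs) with and without CITED2, a nuclear protein that binds the coactivators CBP and p300. The 9 members are *Ifi203*, *Ifi204*, *Ifi206*, *Ifi207*, *Ifi209*, *Ifi211*, *Ifi213*, *Mndal* and *Aim2*. They were picked by gene name from the 22248 genes of the expression table, with their difference between the groups already known, so their levels and fold changes are given as a description and without a test. RNA was taken from resting BMDMs of C57BL/6 mice in 3 control libraries (*Lyz2cre*) and 3 CITED2-deficient libraries (*Cited2* fl/fl:*Lyz2cre*). Both groups carry 1 Cre allele at the *Lyz2* locus, which acts in myeloid cells, and in the second group both *Cited2* alleles are floxed. The labels give an age of 10 weeks and the study's methods a different one. The marrow came from femurs and tibiae and was grown for a week with macrophage colony-stimulating factor. The series text counts 3 mice, but no label ties a library to an animal, so p-values measure the spread between these libraries. With groups of 3 the smallest exact permutation p is 0.1, so tests rest on a model over all genes.

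Most proteins of this family join a pyrin domain, which binds other pyrin domains, to a HIN domain, which binds DNA. AIM2 is the best known: on meeting DNA in the cytosol it recruits the adaptor ASC, which activates caspase-1 and so interleukin-1β, interleukin-18 and the pore protein gasdermin D. IFI204, a relative of human IFI16, acts in macrophages in DNA sensing together with STING, and many members are themselves induced by interferons. The mouse genes lie side by side on chromosome 1, where repeated duplication has left copies that resemble each other closely.

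The cluster spans chr1:173350879-174031810 in mm10, which is 680932 bases with 21 annotated genes, from *Aim2* at its first base to *Ifi205* at its last. What the promoters of the members share is shown first, because the rule did not use it. The 250 bases upstream of each RefSeq transcription start in GRCm38.p6, the assembly behind mm10, were searched on both strands for GAAANNGAAA, a letter pattern of the interferon-stimulated response element. *Ifi204* had no entry among the promoter sequences. Of the other 8 members, 6 held the pattern (*Ifi206*, *Ifi213*, *Ifi207*, *Mndal*, *Ifi211* and *Ifi203*), compared with 2.98% of all 32851 promoter windows. *Ifi209* held the shorter core AANNGAAA, which lies inside the pattern and occurs in 21.3% of all windows, and *Aim2* held neither. *Mndal* and *Ifi203* have more than 1 annotated start, and a member is counted where any of its windows held the pattern. The windows around the element are printed below in the direction of the gene, in chromosomal order, with the element in capitals. For *Ifi209* the capitals mark the 10 bases at the corresponding place, the last 8 of which are the shorter core. The *Mndal* window lies within annotated exon sequence and is limited to 30 bases.
Ifi206, chr1:173491319-173491378, minus strand: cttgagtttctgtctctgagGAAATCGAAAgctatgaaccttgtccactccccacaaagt
Ifi213, chr1:173599306-173599365, minus strand: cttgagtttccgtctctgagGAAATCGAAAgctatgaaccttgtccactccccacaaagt
Ifi209, chr1:173630760-173630819, plus strand: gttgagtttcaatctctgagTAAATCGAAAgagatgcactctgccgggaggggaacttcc
Ifi207, chr1:173741811-173741870, minus strand: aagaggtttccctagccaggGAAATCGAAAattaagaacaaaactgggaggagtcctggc
Mndal, chr1:173880204-173880233, minus strand: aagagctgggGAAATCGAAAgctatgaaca
Ifi211, chr1:173913047-173913106, minus strand: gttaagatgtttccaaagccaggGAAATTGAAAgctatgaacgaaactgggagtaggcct
Ifi203, chr1:173942493-173942552, minus strand: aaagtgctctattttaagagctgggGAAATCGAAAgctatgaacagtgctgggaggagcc

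The element started 40 bases before the transcription start in *Ifi206*, 73 in *Ifi213*, 41 in *Ifi207*, 37 in *Ifi211* and 35 in *Ifi203*. Exactly the letters GAAATCGAAA were found in 5 members (*Ifi206*, *Ifi213*, *Ifi207*, *Mndal* and *Ifi203*). These full letters were chosen for counting after the windows had been read. They occurred in 13 of the 32851 windows (0.0396%), and 7 of the 13 belonged to the cluster, with *Ifi208* and *Ifi214* as the other cluster genes. The variant GAAATTGAAA of *Ifi211* occurred in 36 windows (0.11%), among them that of the neighbor *Ifi205*. Lined up on the element without gaps, the *Ifi206* and *Ifi213* windows were the same at 59 of 60 bases, and the *Mndal* and *Ifi203* windows at 30 of 30. The *Ifi207* window matched that of *Ifi206* at 26 of 60 bases. It was closer to the windows of *Ifi211* (47 of 57 bases) and of *Ifi205* (53 of 60 bases). The members are copies of each other and so are not independent holders of the element, and a match of letters does not show that a factor binds.

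The pattern TTCNNNGAA, a STAT site, occurred in 7.02% of all windows and in none of the 8 members with an entry. *Ifi202b*, whose protein has HIN domains but no pyrin domain and opposes AIM2, was the single family gene with it. The genes outside the family with GAAATCGAAA were *Pnrc1*, *Parp11*, *Serpinb6a*, *Gm26797*, *Gm31431* and *Adcyap1*. Of these 6, 3 could be tested. *Parp11*, a mono-ADP-ribosyltransferase, rose by 0.53 ± 0.05 (SE) on the log2 scale (limma, Benjamini-Hochberg adjusted p = 3.85e-05). *Serpinb6a*, a protease inhibitor, fell by 0.35 ± 0.03 (adjusted p = 4.68e-06 in the same limma fit). For *Pnrc1* the log2 fold change was -0.04 (adjusted p = 0.408 in the same limma fit). These 3 genes did not share a direction, and they are too few to speak for holders of the letters outside the family.

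Levels are given as FPKM, fragments per kilobase of transcript scaled to library size, as deposited, and fold changes as the difference of log2(FPKM + 1) between the groups. *Ifi206* and *Ifi213*, which lie on either side of *Ifi214*, were the least abundant members in control BMDMs and differed most between the groups. *Ifi206* (ENSMUSG00000037849) read 7.37, 7.59 and 9.08 FPKM in control replicates 1 to 3 and 81.0, 96.6 and 89.7 FPKM in CITED2-deficient replicates 1 to 3. Each CITED2-deficient library was thus several times above each control library, and the ratio of the means was 11.1 (log2 fold change 3.32 ± 0.08, SE). Behind these values were 242, 228 and 299 fragments in control and 3579, 3791 and 4068 fragments in CITED2-deficient libraries, so the low control level did not rest on a few fragments. *Ifi213* (ENSMUSG00000073491) read 8.04, 7.89 and 8.68 FPKM in control and 77.2, 89.2 and 82.0 FPKM in CITED2-deficient BMDMs. The groups lay as far apart as for *Ifi206*, with a ratio of 10.1 and a log2 fold change of 3.19 ± 0.06.

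*Ifi211*, known earlier as *Mnda*, and *Ifi209*, known earlier as *Pyhin1*, formed a second step. *Ifi211* (ENSMUSG00000026536) had 21.6, 24.9 and 25.2 FPKM in control and 129.6, 150.4 and 148 FPKM in CITED2-deficient libraries. The lowest CITED2-deficient value was far above the highest control value, and the ratio of the means was 5.98 (log2 fold change 2.53 ± 0.07). *Ifi209* (ENSMUSG00000043263) had 34.4, 32.8 and 32.3 FPKM in control and 184, 198 and 184 FPKM in CITED2-deficient libraries, a ratio of 5.68 (log2 fold change 2.47 ± 0.04). The 3 control libraries of *Ifi209* differed little, with an SD of 1.14 FPKM around a mean of 33.2 FPKM.

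*Ifi204*, the DNA sensor that acts with STING, read 95.6, 93.8 and 100.1 FPKM in control and 393, 423 and 405 FPKM in CITED2-deficient BMDMs. It was the most abundant member once CITED2 was lost, with a ratio of 4.22 (log2 fold change 2.06 ± 0.04), and it stood in the middle of the 9 fold changes. *Ifi203* had 32.6, 33.8 and 33.5 FPKM in control and 122, 143 and 131 FPKM in CITED2-deficient libraries, a ratio of 3.96 (log2 fold change 1.95 ± 0.06). *Mndal*, named after the human myeloid nuclear differentiation antigen, had 94.7, 83.5 and 92.9 FPKM in control and 298, 339 and 297 FPKM in CITED2-deficient libraries. Its ratio was 3.45 and its log2 fold change 1.77 ± 0.06, and again no library of one group came near the other group.

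*Ifi207* and *Aim2* differed least between the groups. *Ifi207* (ENSMUSG00000073490), the most abundant member in control BMDMs, read 112, 113 and 115 FPKM in control and 215, 228 and 217 FPKM in CITED2-deficient libraries. The ratio was 1.94 and the log2 fold change 0.95 ± 0.03, with an SD of 1.45 FPKM among the control libraries. *Aim2* (ENSMUSG00000037860), the inflammasome sensor, read 35.9, 29.8 and 27.0 FPKM in control and 53.7, 57.1 and 54.2 FPKM in CITED2-deficient libraries. Its ratio was 1.78 and its log2 fold change 0.82 ± 0.09, and its control libraries spread the most of all members in relation to their mean (coefficient of variation 14.6%). All 9 members passed the filter of a mean FPKM of 1, and all 9 were higher in CITED2-deficient BMDMs with no overlap of the groups. Over all 11687 genes tested, 16.7% were called higher by limma at an adjusted p of 0.05 and 34.6% lower, and 19% of genes had groups that did not overlap with the CITED2-deficient libraries above. The members were chosen for this difference, so nothing is read from their count. Their median log2 fold change was 2.06, compared with -0.10 over all genes tested. These are bulk libraries, in which fewer cells of a type and less RNA per cell cannot be told apart.

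**Figure D1:**
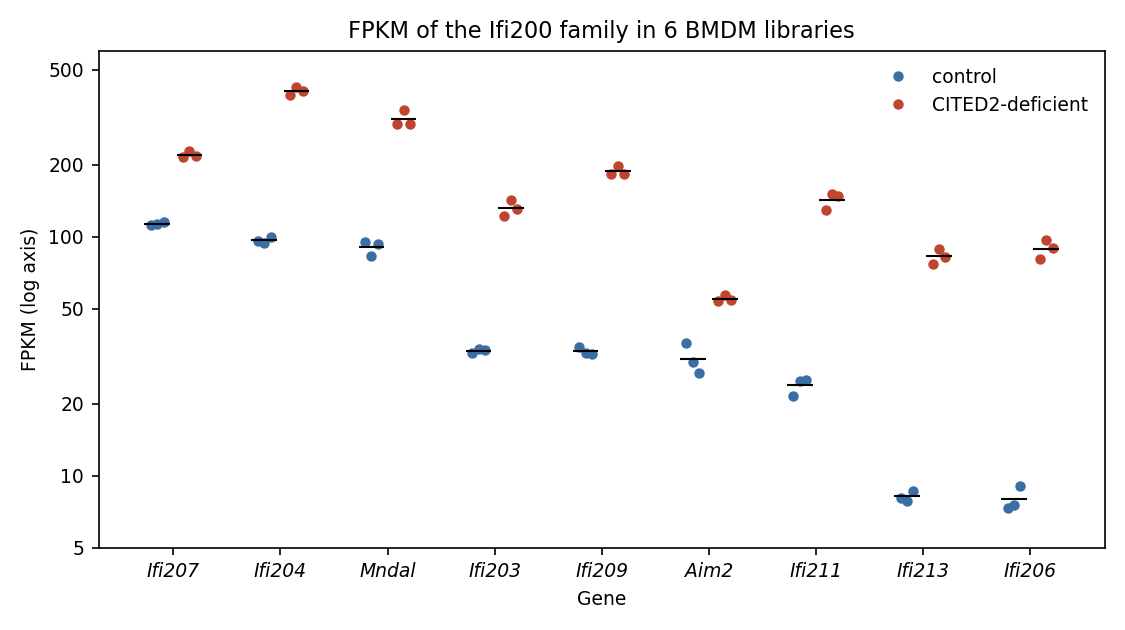
FPKM (log axis) of the 9 Ifi200 members in each of the 3 control (blue) and 3 CITED2-deficient (red) BMDM libraries, with genes ordered by control mean. Points are libraries and short lines are group means. The groups do not overlap for any member, and the gap is widest for *Ifi206* (ratio of means 11.1) and narrowest for *Aim2* (1.78).

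Among the 3 CITED2-deficient libraries, replicate 2 had the highest FPKM for 9 of the 9 members. Over all genes tested, replicate 2 was the highest of the 3 for 31.9%, and over the genes called higher for 39.6%. Among the control libraries no replicate stood out in this way, and the highest member values fell in replicate 1 for 3 members, in replicate 2 for 1 and in replicate 3 for 5. Without CITED2-deficient replicate 2 the median log2 fold change of the members was 2.04. The coefficient of variation within a group ran from 1.28% to 14.6% in control and from 3.17% to 8.74% in CITED2-deficient libraries.

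The order of the levels changed with the genotype. In control BMDMs, *Ifi207* (113 ± 1.45 FPKM, SD, n = 3) stood above *Ifi204* (96.5 ± 3.28 FPKM) and *Mndal* (90.4 ± 6.02 FPKM), and the libraries of *Ifi204* and *Mndal* overlapped. *Ifi203*, *Ifi209* and *Aim2* followed at means of 33.3, 33.2 and 30.9 FPKM, with overlapping libraries at each step. *Ifi211* lay below them at 23.9 FPKM, and *Ifi213* and *Ifi206*, at 8.20 and 8.01 FPKM, overlapped each other at the bottom. In CITED2-deficient BMDMs the order was *Ifi204* (407 ± 14.96 FPKM), *Mndal* (311 ± 24.1 FPKM), *Ifi207* (219.95 ± 6.98 FPKM) and *Ifi209* (188 ± 8.10 FPKM), each separate from the next. *Ifi211* and *Ifi203* overlapped at means of 143 and 132 FPKM, as did *Ifi206* and *Ifi213* at 89.1 and 82.8 FPKM, and *Aim2* was last at 55.0 ± 1.82 FPKM. *Aim2* thus moved from the sixth place to the ninth.

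This order rests on the length by which the counts were divided. The deposited FPKM could be turned into whole fragments with the mean length of all annotated transcripts of a gene, which is far below the longest coding transcript for some members. For *Mndal* the mean was 1103 bases and the longest coding transcript 2026 bases, for *Aim2* 1015 and 2839 bases, and for *Ifi206* 1738 and 3047 bases. Divided by the longest coding transcript, *Aim2* came to 11.05 ± 1.61 FPKM in control and 19.7 ± 0.652 FPKM in CITED2-deficient BMDMs. On that scale *Ifi207* (211 ± 6.70 FPKM) stood above *Mndal* (169 ± 13.1 FPKM) in CITED2-deficient BMDMs, which is the reverse of the deposited scale. *Ifi207* was first in control, and *Ifi204* first and *Aim2* last in CITED2-deficient BMDMs, on both scales. The ratio between the groups is the same on both, since a gene keeps 1 length in all libraries.

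The summed FPKM of the 9 members was 438 ± 9.43 (SD, n = 3) in control and 1628 ± 87.4 in CITED2-deficient BMDMs, a ratio of 3.72. In fragments, the members took 0.0921% to 0.0951% of a control library and 0.318% to 0.351% of a CITED2-deficient library. The make-up of the sum differed as well. *Ifi207* gave 25.9 ± 0.526% of it in control and 13.5 ± 0.307% in CITED2-deficient BMDMs, and *Aim2* 7.06 ± 1.009% and 3.38 ± 0.0752%. *Ifi206* went the other way, from 1.83 ± 0.196% to 5.47 ± 0.213%, and *Ifi213* from 1.87 ± 0.0725% to 5.08 ± 0.101%. *Ifi204* went from 22.1 ± 0.487% to 25.0 ± 0.428%, while for *Mndal* the libraries of the groups overlapped (20.6 ± 0.957% and 19.1 ± 0.604%).

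**Figure D2:**
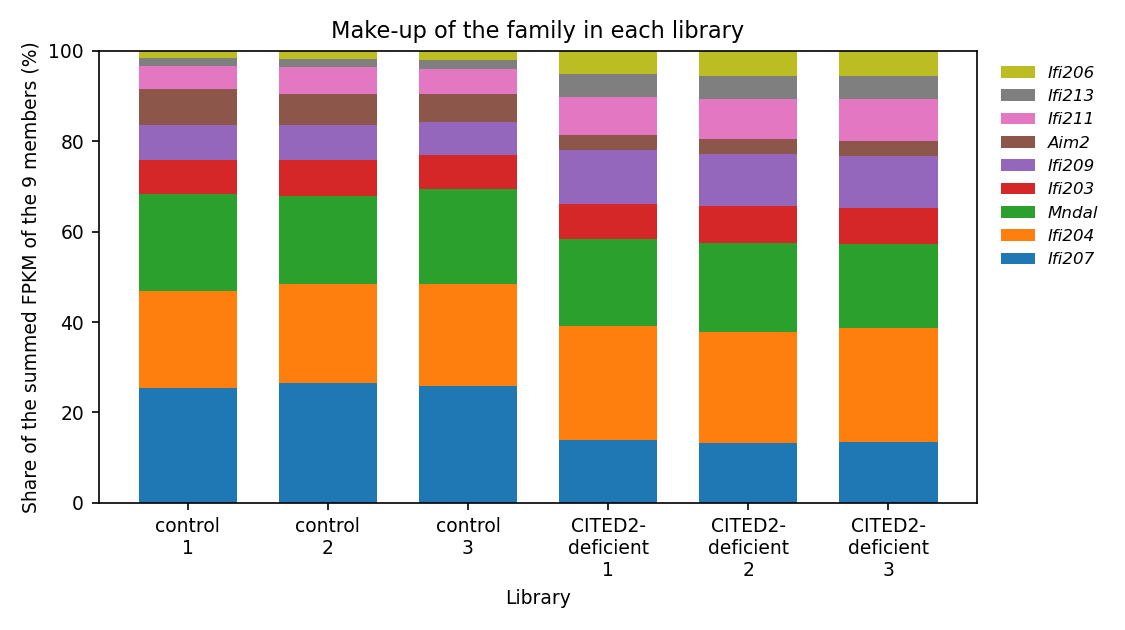
Stacked bars give the share of each member in the summed FPKM of the 9 Ifi200 members (%) for each of the 6 libraries. *Ifi207* falls from 25.9% of the sum in control to 13.5% in CITED2-deficient BMDMs, and *Ifi206* and *Ifi213* at the top of the bars widen from under 2.1% each to about 5%.

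Across the 9 members the fold change tended to be larger where the control level was lower. Spearman's rho between the log2 fold change and the control mean was -0.70 over the 9 members on the deposited scale and -0.52 with the longest coding transcript. These are descriptions over genes that share libraries and reads, and the control level enters both quantities. *Ifi203* and *Ifi209* show that the relation is loose: they had the same control level, 33.3 and 33.2 FPKM, and ratios of 3.96 and 5.68. *Aim2* went against it, with 30.9 FPKM in control and the smallest ratio, 1.78, while *Ifi204* had 96.5 FPKM and a ratio of 4.22.

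How far the members can be told apart by short reads was measured from the GENCODE vM21 transcripts. No source used here gives the read length or how reads that match several genes were divided, so stretches of 75 and of 50 bases were both taken. Of the 75-base stretches in its longest coding transcript, *Ifi211* shared 63.6% with another gene, mostly *Ifi205* (40.6%) and otherwise *Ifi204*, *Mndal* or *Ifi207*. *Ifi209* shared 24.3%, all with *Ifi214*, and *Ifi204* shared 20.7%, mainly with *Ifi211* (17.7%). *Ifi206*, *Ifi213* and *Mndal* shared 18.1%, 14.4% and 13.9%. *Ifi203* shared 5.19%, *Ifi207* 2.86% and *Aim2* none, so at this length nearly all of the sequence of these last 3 is found in no other gene. *Ifi211* was the only member with most of its stretches shared. With 50 bases the shares rose, to 72.8% for *Ifi211*, 10.7% for *Ifi203* and 7.39% for *Ifi207*, and *Aim2* reached 0.789%. *Mndal* and *Ifi203* also overlap on the same strand by 37 exonic bases.

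The closest copies aligned over long stretches, in some pairs along most of the transcript. *Ifi209* and *Ifi214* were 97.2% identical over 2824 aligned bases, and *Ifi213* and *Ifi208* 96.6% identical over 2747 bases. *Ifi204* and *Ifi211* were 96.5% identical over 1371 bases, and *Ifi211* and *Ifi205* 94.5% over 1608 bases. *Ifi206* and *Ifi213*, with transcripts of 3047 and 2748 bases, were 92.9% identical over 1359 bases. Over the 9 members, Spearman's rho between the log2 fold change and the share of 75-base stretches found in other genes was 0.73, again as a description. The members with little shared sequence, *Ifi203*, *Ifi207* and *Aim2*, had ratios of 3.96, 1.94 and 1.78. The part that shared reads have in the other ratios was not tested, and the values of *Ifi211*, *Ifi209*, *Ifi204*, *Ifi206*, *Ifi213* and *Mndal* are uncertain to that extent.

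**Figure D3:**
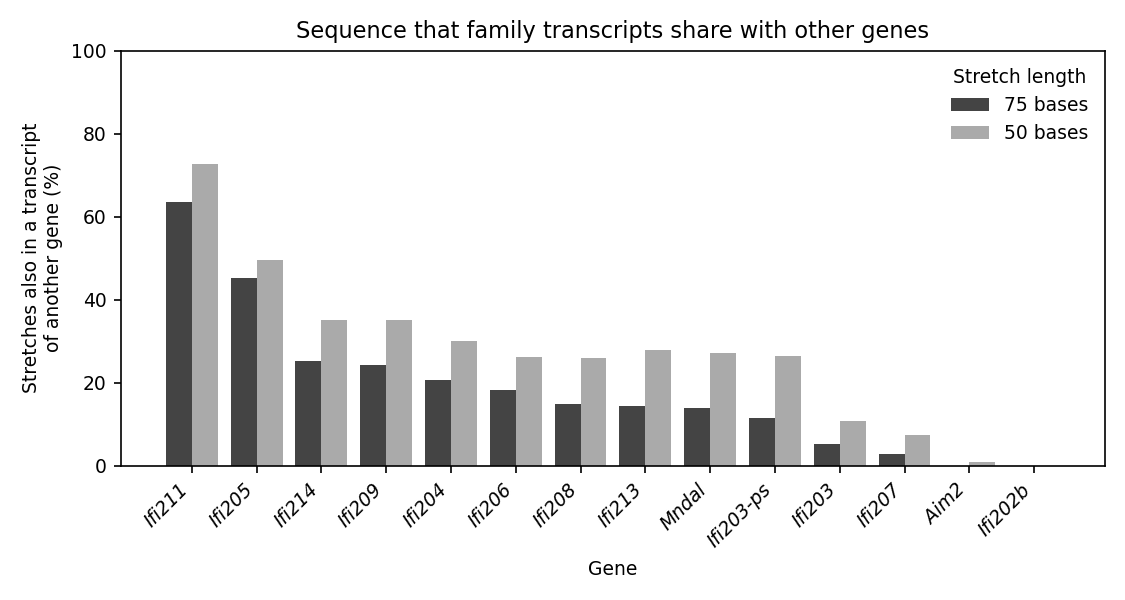
Bars give the share of stretches of 75 bases (dark) or 50 bases (light) in the longest transcript of each family gene that also occur in a transcript of another gene (%). *Ifi211* is highest at 63.6% for 75 bases, and *Aim2* and *Ifi202b* are at 0.

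The family genes outside the 9 members were read from the same table. *Ifi208*, known earlier as *Pydc3*, read 2.51, 2.25 and 2.65 FPKM in control and 27.8, 32.6 and 31.2 FPKM in CITED2-deficient libraries (log2 fold change 3.18 ± 0.08, limma adjusted p = 4.28e-09). The ratio of its means was 12.4, beside 10.1 for its near copy *Ifi213*, with which it shares sequence, and the difference between these was not tested. *Ifi205*, a HIN-200 gene and the near copy of *Ifi211*, was barely detected in control, at 8, 18 and 19 fragments, and had 356, 450 and 380 fragments in CITED2-deficient libraries (log2 fold change 2.50 ± 0.15, limma adjusted p = 1.44e-06). Its fold change depended on the pseudocount and was 3.99 with a pseudocount of 0.1 and 4.33 with limma-voom on fragments. The pseudogene *Ifi203-ps* rose by 1.95 ± 0.09 on the log2 scale (limma adjusted p = 2.87e-07). *Ifi214* was under the filter and was not tested. It had 4, 4 and 2 fragments in control and 109, 118 and 124 in CITED2-deficient libraries, few beside the 1426 to 1638 and 11241 to 12070 of its near copy *Ifi209*. *Ifi202b* had 1 fragment in each control library and 1, 0 and 1 in CITED2-deficient libraries, which is too few to compare, although its transcript shares no 75-base stretch with another gene. *Ifi205* passed the filter through the CITED2-deficient libraries, and *Ifi208*, *Ifi205* and *Ifi203-ps* share sequence with members, so they are not separate from the members' values.

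The remaining genes of the cluster were low. A microRNA entry inside the *Ifi209* locus, *Gm44339*, was called higher (log2 fold change 1.81 ± 0.34, limma adjusted p = 0.00211), but on 6, 2 and 1 fragments in control and 17, 21 and 14 in CITED2-deficient libraries. The pseudogenes *Gm18752* and *Gm7871* and the microRNA entry *Gm44481* had at most 10 fragments in any library. *Gm7897*, *Gm38050* and *Gm18445* had no entry in the expression table. Outside the cluster the nearest tested genes went in both directions. *Slamf8*, an immune receptor 760311 bases away, rose by 1.05 ± 0.08 on the log2 scale (limma adjusted p = 5.85e-06), and *Dusp23*, a phosphatase 717917 bases away, fell by 0.47 ± 0.09 (limma adjusted p = 0.00245). On the other side, *Fh1*, the fumarase of the citric acid cycle, fell by 1.11 ± 0.05 (limma adjusted p = 1.10e-07), and *Kmo*, an enzyme of tryptophan breakdown, fell by 1.25 ± 0.14 (limma adjusted p = 8.19e-05). These lie 1568564 and 1588571 bases from the cluster.

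**Figure D4:**
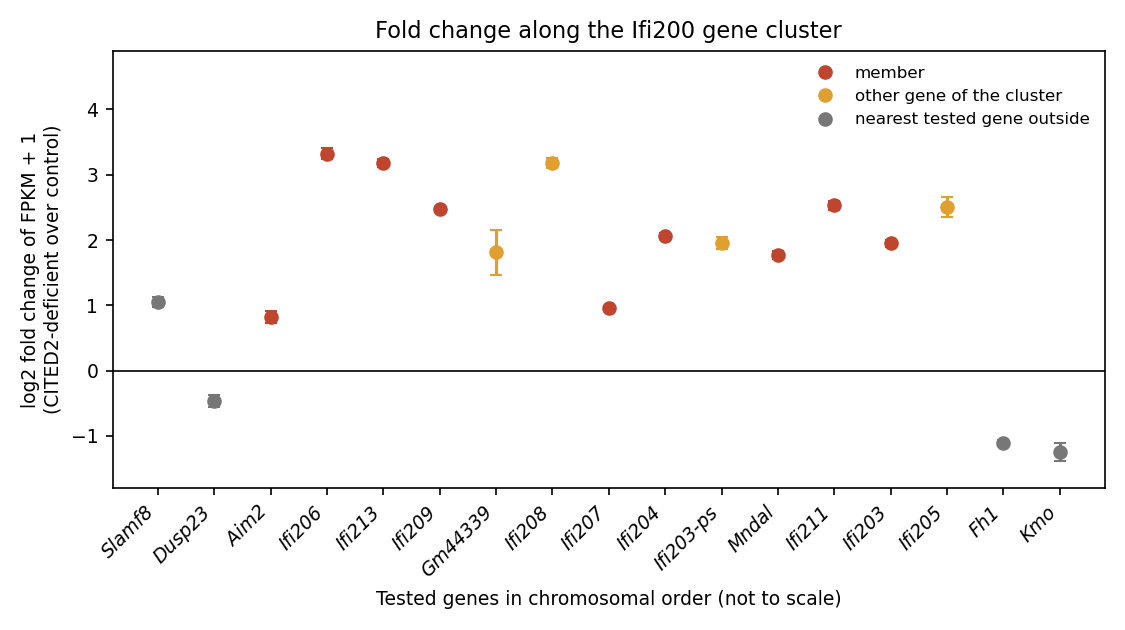
Log2 fold change of FPKM + 1 (CITED2-deficient over control, bars are SE) for the tested genes of the cluster in chromosomal order and the 2 nearest tested genes on each side. Members are red, other genes of the cluster orange and outside genes gray. All tested genes of the cluster lie above 0, from 0.82 for *Aim2* to 3.32 for *Ifi206*, and 3 of the 4 outside genes lie below 0.

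Genes of the AIM2 inflammasome and of other inflammasomes changed in both directions, and of the 8 on the list 6 rose and 2 fell (median log2 fold change 0.48, compared with -0.10 over all genes). *Pycard*, which encodes the adaptor ASC, read 16.2, 15.2 and 16.9 FPKM in control and 9.32, 9.92 and 7.75 FPKM in CITED2-deficient libraries. It fell by 0.78 ± 0.09 (limma adjusted p = 8.44e-05), so the sensor *Aim2* was higher and its adaptor lower in the same libraries. *Casp1*, the protease of the inflammasome, rose by 0.57 ± 0.04 on the log2 scale, from 50.4, 49.5 and 48.1 FPKM to 72.0, 77.3 and 72.0 FPKM (limma adjusted p = 4.32e-06). *Casp4*, the mouse caspase-11 that senses lipopolysaccharide, rose by 1.07 ± 0.06 (limma adjusted p = 5.01e-07), and *Gsdmd*, the pore former gasdermin D, by 0.26 ± 0.03 (limma adjusted p = 0.000217). Among the other sensors, *Nlrp3* fell by 0.96 ± 0.06 (limma adjusted p = 2.54e-06), whereas *Mefv*, which encodes pyrin, rose by 0.73 ± 0.12 (limma adjusted p = 0.000853). The cytokine gene *Il1b* was low in resting cells, at 1.57 to 2.02 FPKM in control and 3.31 to 3.84 FPKM in CITED2-deficient libraries, and rose by 0.72 ± 0.11 (limma adjusted p = 0.000686). *Il18* passed narrowly (0.38 ± 0.13, limma adjusted p = 0.0408) with groups that overlapped. It no longer passed without control replicate 1 (log2 fold change 0.32) or replicate 3 (0.27), or without CITED2-deficient replicate 1 (0.39), 2 (0.32) or 3 (0.43), nor with no filter or without the variance trend (0.38 in both).

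The cGAS-STING pathway is the other route from cytosolic DNA and the route of IFI204. Its list also held genes beyond the pathway itself, such as *Zbp1* and *Samhd1*. Of the 10 genes tested, 4 rose, 2 fell and 4 did not pass (median log2 fold change -0.03). *Zbp1*, a sensor of Z-form nucleic acid that is itself induced by interferon, read 13.4, 10.3 and 13.4 FPKM in control and 75.4, 91.5 and 85.4 FPKM in CITED2-deficient libraries (log2 fold change 2.68 ± 0.10, limma adjusted p = 6.45e-08). *Mb21d1*, which encodes cGAS, rose by 0.76 ± 0.10 (limma adjusted p = 0.000203), and *Samhd1*, which breaks down the building blocks of DNA, by 0.88 ± 0.04 (limma adjusted p = 3.81e-07). *Tmem173*, which encodes STING, rose by 0.24 ± 0.05, from 15.4, 15.7 and 16.0 FPKM to 19.6, 19.2 and 17.7 FPKM (limma adjusted p = 0.00487). The factor *Irf3* fell by 0.39 ± 0.05 (limma adjusted p = 0.000239) and the kinase *Ikbke* by 0.30 ± 0.05 (limma adjusted p = 0.000685). *Tbk1*, the kinase of STING, had a log2 fold change of 0.00 ± 0.03, and *Ddx41*, *Dnase2a* and *Mre11a* had -0.08, -0.07 and -0.17.

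Several factors that carry the interferon signal to the nucleus were higher, while the receptors were not. Of the 14 genes of the list, 7 rose, 4 fell and 3 did not pass (median log2 fold change 0.20). *Irf7*, the regulator of type I interferon genes, read 74.2, 66.4 and 80.4 FPKM in control and 775, 839 and 835 FPKM in CITED2-deficient libraries (log2 fold change 3.46 ± 0.06, limma adjusted p = 8.88e-10), beside 3.32 ± 0.08 for the member *Ifi206*. *Stat2* rose by 2.10 ± 0.04, *Irf9* by 0.67 ± 0.04 and *Irf1* by 0.84 ± 0.06 (limma adjusted p = 1.45e-09, 1.73e-06 and 4.99e-06). The inhibitors of the pathway were higher too, with *Usp18* at 2.30 ± 0.08 and *Socs1* at 0.74 ± 0.15 (limma adjusted p = 2.58e-08 and 0.00282). *Socs1* was low, at 0.502, 0.610 and 0.649 FPKM in control and 1.51, 1.42 and 2.09 FPKM in CITED2-deficient libraries. It passed the filter through the CITED2-deficient libraries, so the filter favored a rise. The kinase *Jak2* rose by 0.29 ± 0.06 (limma adjusted p = 0.00455). The receptor chains *Ifnar1* and *Ifnar2* fell by 0.27 ± 0.04 and 0.30 ± 0.03, and *Ifngr1* fell by 0.92 ± 0.03 (limma adjusted p = 0.00027, 4.65e-05 and 3.02e-08). *Jak1* fell by 0.11 ± 0.03 (limma adjusted p = 0.00787), a call lost under median-ratio scaling and without the variance trend, and *Ifngr2*, *Tyk2* and *Irf8* did not pass (0.02, 0.11 and -0.02).

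The interferon genes in the table were nearly silent. Of the 20 ligand genes looked up, 2 were listed in the table and neither reached the filter. *Ifnb1*, which encodes interferon-β, was at 0 fragments in the 3 control libraries and at 5, 2 and 5 fragments in CITED2-deficient libraries, and *Ifnk* had at most 1 fragment in a library. The remaining 18 symbols, among them *Ifng* and those of interferon-α, had no entry under these names in the expression table.

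**Figure D5:**
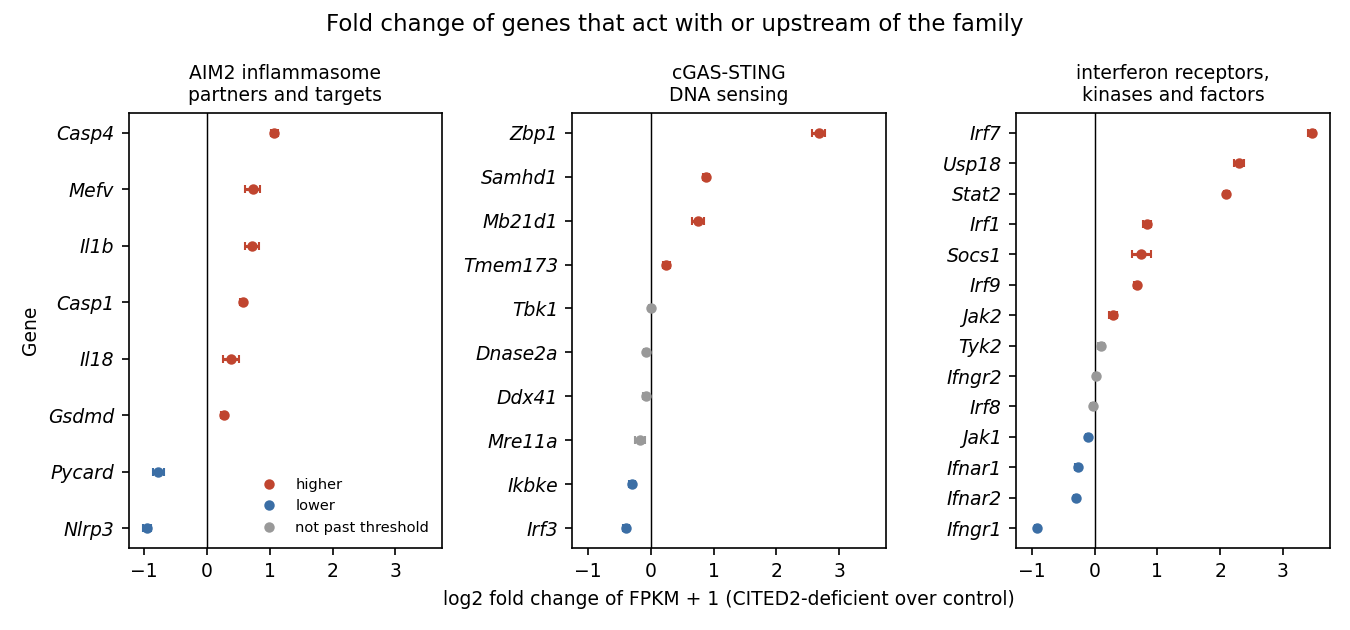
Log2 fold change of FPKM + 1 (CITED2-deficient over control, bars are SE) for the tested genes of 3 lists, with red for genes past an adjusted p of 0.05 and higher, blue for lower and gray for not past it. *Irf7* (3.46) and *Zbp1* (2.68) lie farthest right, and *Nlrp3* (-0.96), *Ifngr1* (-0.92) and *Pycard* (-0.78) farthest left.

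The genes most like the members over the 6 libraries were sought as those outside the family with the smallest Euclidean distance between their centered log2(FPKM + 1) values and the median profile of the 9 members. *Stat2* was closest (0.0704), followed by *Ctnnd2*, which encodes δ-catenin (0.0847), *Cd72*, a lectin receptor with inhibitory signaling (0.0950), *Xaf1*, an interferon-induced partner of XIAP (0.101), and *Ifi47*, an interferon-induced GTPase (0.124). *Cd72* was far more abundant than any member, at 203 ± 9.42 FPKM in control and 834 ± 11.6 FPKM in CITED2-deficient libraries (SD, n = 3). Among the members the distance ran from 0.00631 for *Ifi204* to 1.56 for *Aim2*, so 8 of the members, all but *Ifi204*, lay farther from their own median than these 5 genes. The measure follows the size of the fold change, here close to a log2 value of 2, and no more than that.

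The labels and cell types were checked beside these results. *Cited2* read 71.7, 79.3 and 75.5 FPKM in control and 9.27, 7.22 and 7.53 FPKM in CITED2-deficient libraries, so the 6 libraries matched their labels. Depth was 17289286 to 18952077 fragments in control and 22583995 to 26100410 in CITED2-deficient libraries. Macrophage markers were abundant in both groups, with a summed FPKM of 5624 to 5694 in control and 5287 to 5367 in CITED2-deficient libraries, led by *Adgre1*, *Cd68* and *Csf1r*, and of the 8 markers 1 rose (*Fcgr1*) and 5 fell, with 3 rising under median-ratio scaling. *Lyz2*, the locus that carries Cre, read 30.8, 30.6 and 32.5 FPKM in control and 9.39, 9.82 and 10.0 FPKM in CITED2-deficient BMDMs, and fell by 1.59 ± 0.05 on the log2 scale (limma adjusted p = 2.33e-08). All 8 of the 8 fibroblast or stromal markers tested rose, and the summed list was 54.0 to 63.8 FPKM in control and 206 to 599 FPKM in CITED2-deficient libraries, highest in replicate 1, where *Col1a1* read 305 FPKM compared with 62.0 and 62.6 FPKM. The list's *Lum* and *Thy1* stayed under 1 FPKM in each library and were not tested. *Postn* and *Pdgfrb* were under 1 FPKM in each control library and passed the filter through the CITED2-deficient libraries, so the filter favored a rise for them. The Ifi200 members were highest in replicate 2, and without CITED2-deficient replicate 1 their median log2 fold change was 2.09, compared with 2.06. Leaving out replicate 1 does not remove the stromal difference, since *Col1a1* read 15.5, 14.2 and 16.6 FPKM in control, below replicates 2 and 3 as well. Of the 9 neutrophil and precursor markers tested, 2 rose and 6 fell, with summed levels of 741 to 810 FPKM and 666 to 784 FPKM. *Ltf* rose by 0.90 ± 0.06 on the log2 scale and *Retnlg* by 1.74 ± 0.13 (limma adjusted p = 1.99e-06 and 5.43e-06). *Retnlg* read 0.446, 0.878 and 0.623 FPKM in control and passed the filter through the CITED2-deficient libraries. The granule genes of precursors fell most, with log2 fold changes of -2.54 ± 0.12 for *Mpo*, -2.08 ± 0.07 for *Elane* and -2.12 ± 0.09 for *Prtn3* (limma adjusted p = 2.13e-07, 4.32e-08 and 1.49e-07). The summed B cell, T and NK cell and dendritic cell lists stayed under 8 FPKM in each library. The part of these marker differences in the levels of the members was not tested.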

How the data were processed

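Total RNA of 6 BMDM libraries was depleted of ribosomal RNA and made into stranded libraries. The authors aligned them with STAR (mm10) and deposited FPKM from Cuffdiff for each gene and library, using a GENCODE annotation. No source used here gives tool versions, read length or the treatment of multiply mapped reads. Replicates were not pooled, and 0 columns were left unused.

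Whole fragments were recovered from the deposited FPKM with the mean transcript length in GENCODE vM21 (22220 genes matched, 96.1% whole within 0.02 in all 6 libraries). Genes whose mean FPKM reached 1 were compared by limma 3.58.1 (R 4.3.3) as log2(FPKM + 1) values (variance trend, Benjamini-Hochberg adjustment over all 11687 genes tested, threshold 0.05). The pseudocount of 1 understates folds of low genes, and the steps were tested on simulated data. Depth sets counting error, which is small for the members.

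The members, lists and tests were chosen with earlier results of these data known. Named genes are the members, list genes, *Cited2*, the genes of the cluster and the 2 nearest tested genes on each side, and the 5 genes with the most similar profile. A further gene of the interferon signaling list was left out and is not reported here. The promoter genes *Parp11*, *Serpinb6a*, *Pnrc1*, *Gm26797*, *Gm31431* and *Adcyap1* were chosen after the motif search. Shared stretches were counted between the longest coding transcript of each gene (for a pseudogene, its own transcript) and all transcripts of other genes. Promoter windows are from RefSeq (GRCm38.p6, 250 bases before to 50 after the start, the first 250 searched). The alternatives comprised pseudocounts of 0.1 and 0.5, dropping the filter or raising it to a mean FPKM of 5, median-ratio scaling, quantile normalization, limma without the trend, a replicate block, limma-voom on the recovered fragments, and leaving out each library.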

Additional observations from a re-analysis of the deposited data

How the results depend on the processing

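Median-ratio scaling moved the number of genes called lower from 4044 to 2490, the share of higher calls from 32.5% to 52.0% (42.0% with quantile normalization) and the median of all genes from -0.10 to -0.01, and with it the median log2 fold change of the members from 2.06 to 2.17. The fold changes ranged over the alternatives from 0.73 to 0.93 for *Aim2*, from 0.93 to 1.05 for *Ifi207* and from 3.26 to 3.47 for *Ifi206*. Leaving out each library in turn gave 5211 to 5475 genes changed. In the pathway and family lists, 5 calls were gained and 9 lost over the alternatives, and none changed sign while past the threshold. *Tbk1*, *Ifngr2* and *Tyk2* passed as higher under median-ratio scaling (0.11, 0.12 and 0.21). The deviations of same-numbered libraries from their group means were nearly uncorrelated (r = 0.0138, 0.00784 and 0.0402). Pairs with different numbers ran from -0.0521 (control 1 with CITED2-deficient 3) to 0.0354 (control 1 with CITED2-deficient 2). No shared shift was seen, but with 3 libraries in a group this cannot show whether same-numbered libraries were prepared together. A replicate block gave 5708 genes changed (1895 higher, 3813 lower), compared with 5994 without it. With no filter 4 of the other family genes were called higher, and with a mean FPKM of at least 5, which leaves out *Ifi205*, 2 were. *Ifi214* was left out by the filter, and *Ifi202b*, *Ifnb1* and *Ifnk* had at most 5 fragments in any library.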

Other observations

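The letter pattern GAAANNGAAA was also followed beyond the Ifi200 cluster. Of the 8754 tested genes with a promoter window, 16.2% were called higher and 36.0% lower in CITED2-deficient BMDMs (limma, adjusted p of 0.05). Of the 303 tested genes outside the family that held the pattern in the 250 bases before the start, 34.0% were called higher and 30.03% lower, with a median log2 fold change of -0.02. These shares are given as a description, without a test, and the genes that held the pattern were called in both directions.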
